A study of Mus musculus with 3 samples.

Results

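Glucose breakdown and the response to low oxygen were followed through 30 genes, listed by symbol, in single cells of mouse abdominal skin; all 30 symbols were found among the 28693 genes of the tables, and the rule for the list used no measured value. They comprise the glucose transporter gene Slc2a1, the glycolytic enzymes and their regulator Pfkfb3, the lactate and pyruvate genes Ldha, Ldhb, Slc16a1, Slc16a3, Pdk1 and Pdha1, the transcription factor gene Hif1a, and 9 genes known to respond to low oxygen. Of 3 libraries, 1 came from non-pregnant females (NP), which had received tamoxifen for 3 days and were sampled 48 days later, 1 from day 16 of gestation (dpc16) and 1 from day 42 after birth (dpp42). In dpc16 and dpp42, tamoxifen was given during pregnancy. All 3 libraries were from C57BL/6 mice 8 to 12 weeks old that carried Col1a2creERT2, a tamoxifen-activated recombinase under a collagen gene promoter, and R26H2B EGFP, a green nuclear reporter; the reporter was not used here. How many mice each library represents is not given in the sources used here.

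With 1 library per stage there is no replicate error between stages, so no test was possible and no p-value is given. A unique molecular identifier (UMI) marks 1 captured transcript, and levels are UMIs per 1000000 UMIs (CPM) of all cells of a class in a library. Intervals are exact 95% intervals for counting error alone. A gene was called higher or lower where 2 sums differed at least 1.5-fold and the interval of their ratio excluded 1, among genes with at least 10 CPM in 1 of the 2 sums and at least 20 UMIs over both, named measured genes below. Because reads were taken from transcript ends, 1 UMI stands for 1 transcript whatever its length, and levels of different genes are set side by side on that scale.

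Glycolysis splits glucose into pyruvate in the cytosol, and lactate dehydrogenase then converts pyruvate and lactate into each other. Ldha encodes the subunit usual in tissues that make lactate, Ldhb the subunit usual in tissues that oxidise it, and pyruvate dehydrogenase, of which Pdha1 encodes a catalytic subunit, passes pyruvate into the mitochondrial cycle. When oxygen falls, HIF-1α, the product of Hif1a, escapes hydroxylation by the prolyl hydroxylases encoded by Egln1 and Egln3, pairs with the product of Arnt and binds short DNA elements with the core ACGTG or GCGTG; epidermis, which has no vessels of its own, is known for a stable HIF-1α signal.

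Upstream sequences of 4 genes on which the results turn are shown first, from the RefSeq promoter table on build GRCm38.p6, 5′ to 3′ on the gene's own strand and ending where the annotated transcript begins. Bnip3 and Egln1 were both lower in dpc16 keratinocyte-like cells, and Ldha and Ldhb encode the paired lactate dehydrogenase subunits. Capitals mark each ACGTG or GCGTG and their reverse complements CACGT and CACGC, which may overlap. The Bnip3 stretch, chr7:138909520-138909756 on the minus strand, held 5 matches, whereas that of Egln1, chr8:124949325-124949504 on the minus strand, held 1. The Ldha stretch, chr7:46845554-46845803 on the plus strand, lies in an intron of a longer Ldha transcript and held 5, while the stretch before a second listed Ldha start, chr7:46846832-46847081, held 1. That of Ldhb, chr6:142507958-142508207 on the minus strand, held 1.
Bnip3: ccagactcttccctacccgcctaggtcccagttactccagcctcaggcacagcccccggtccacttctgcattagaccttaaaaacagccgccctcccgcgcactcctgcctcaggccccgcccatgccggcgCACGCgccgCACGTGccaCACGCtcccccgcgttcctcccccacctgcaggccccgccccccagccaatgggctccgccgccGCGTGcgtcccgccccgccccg
Egln1: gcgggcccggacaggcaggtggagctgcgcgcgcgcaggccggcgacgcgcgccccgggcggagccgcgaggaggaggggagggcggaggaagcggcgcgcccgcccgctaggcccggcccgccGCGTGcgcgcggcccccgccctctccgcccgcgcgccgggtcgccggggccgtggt
Ldha: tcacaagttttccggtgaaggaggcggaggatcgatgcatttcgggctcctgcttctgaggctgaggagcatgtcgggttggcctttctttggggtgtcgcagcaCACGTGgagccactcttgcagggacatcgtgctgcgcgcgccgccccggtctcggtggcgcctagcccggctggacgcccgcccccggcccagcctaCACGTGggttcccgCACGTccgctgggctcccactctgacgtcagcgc
Ldhb: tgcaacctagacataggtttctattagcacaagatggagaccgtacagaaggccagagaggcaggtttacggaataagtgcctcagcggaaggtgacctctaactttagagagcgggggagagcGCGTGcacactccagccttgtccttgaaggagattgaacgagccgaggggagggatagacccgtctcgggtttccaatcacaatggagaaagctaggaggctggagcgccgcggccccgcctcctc

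Over the 300-base promoters of the same table, from 250 bases before to 50 bases after the start, 27 of the 30 genes had an entry, Bnip3l, Ndrg1 and Ero1l being the others. A match stood in the first listed promoter of 22 of the 27 (81.5%), against 43.8% of 27025 genes with an entry and 65.5% of 6763 other genes that reached 10 CPM in at least 1 library. A match is a run of letters and not a site of binding.

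After removal of cells with fewer than 200 genes or over 10% mitochondrial UMIs, the NP, dpc16 and dpp42 libraries held 1289, 3652 and 1081 cells with medians of 3119, 4300.5 and 3252 UMIs and totals of 5905715, 19711100 and 5432269 UMIs. Although the cells are labelled dermal, keratinocyte-like cells made up 77.4%, 41.5% and 67.1% of them in the order NP, dpc16 and dpp42, and fibroblast-like cells numbered 102, 1125 and 112. Between pairs of libraries 2 to 7 cell barcodes were shared. Classes are clusters named from marker genes, with the 30 genes kept out of the clustering. The basal-like class, the reference for several comparisons below, is a single cluster. Its leading genes included 1 basal marker, Krt5, and 1 marker of activated keratinocytes, Serpinb2. Spinous markers scored second there (1.327 against 2.265). Clusters 3 and 10 scored best for bulge and infundibulum markers, but haemoglobin genes were among their leading genes and they were given no class. They held 23 and 62 NP, 242 and 255 dpc16 and 18 and 61 dpp42 cells. These cells are outside the percentages above and the follicle classes below. All 11 heat shock genes examined were detected in each class, and their summed level stood apart in dpc16: 16328 CPM in keratinocyte-like cells of dpc16 against 7891 CPM in NP, 14175 against 6739 CPM in fibroblast-like cells, and 13098 against 8005 CPM in blood endothelial-like cells. The part of heat shock genes in the stage results was not tested.

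Together the 30 genes took 0.259% of all UMIs in NP, 0.262% in dpc16 and 0.276% in dpp42. Aldoa, which encodes the aldolase that splits the sugar bisphosphate into triose phosphates, was highest over all cells at 331, 352 and 372 CPM, followed by Gapdh, the glyceraldehyde phosphate dehydrogenase gene, at 228, 299 and 218 CPM. Ldha stood at 215, 204 and 229 CPM in the same order. At the other end the lactate exporter gene Slc16a3 had 5.93, 2.38 and 5.15 CPM. By class the sum was 0.328%, 0.363% and 0.339% of UMIs in sebocyte-like cells, 0.335%, 0.394% and 0.323% in blood endothelial-like cells and 0.298%, 0.304% and 0.346% in basal keratinocyte-like cells of NP, dpc16 and dpp42. Infundibulum-like cells of the upper follicle had 0.193%, 0.196% and 0.158%, and fibroblast-like cells had 0.253%, 0.188% and 0.268%. The order of the first 3 classes differed between libraries, and each reached its level through different genes.

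**Figure D1:**
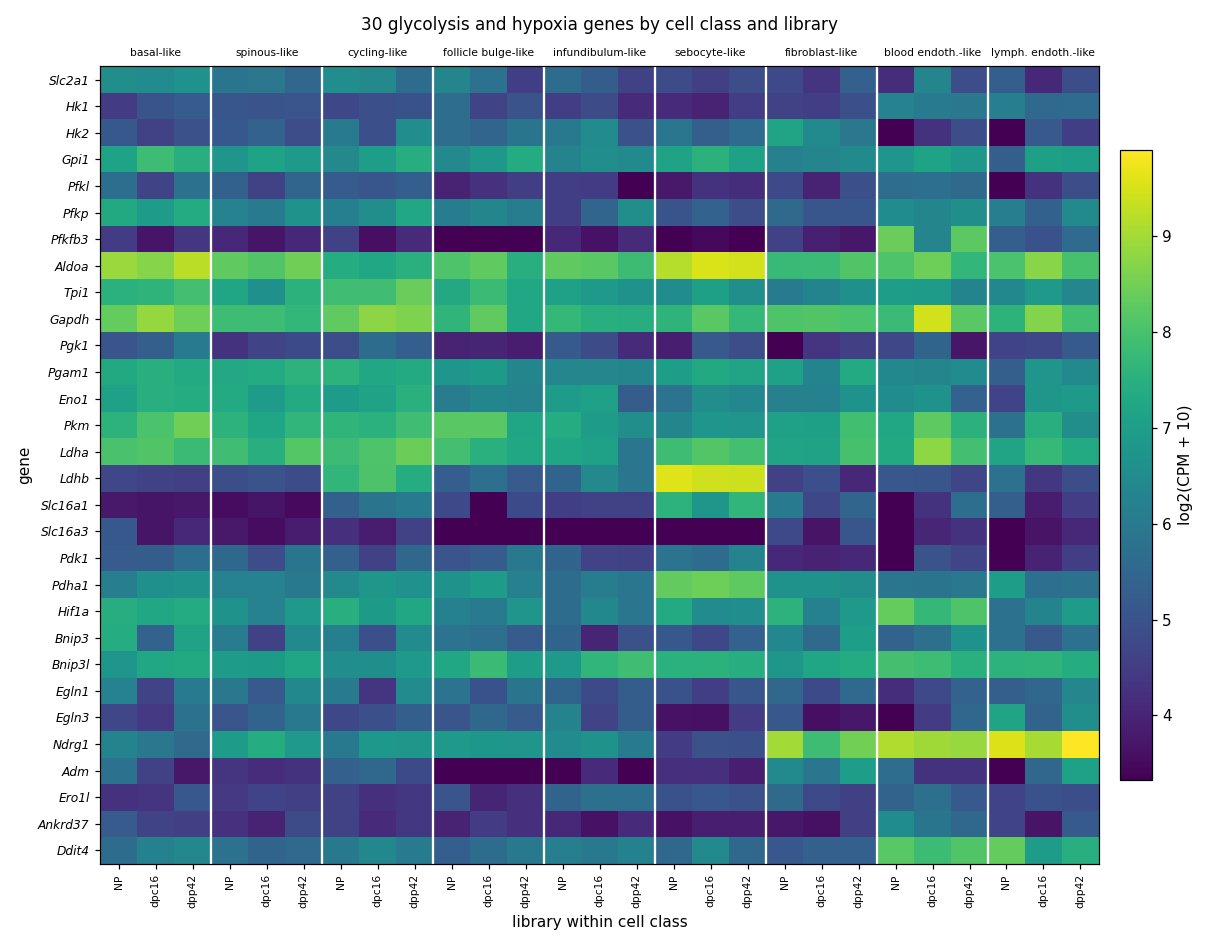
Heat map of log2(CPM + 10) for the 30 genes (rows, by role) in 9 cell classes (column groups), each with NP, dpc16 and dpp42 from left to right. Brighter cells are higher and darker cells lower. Ldhb and Slc16a1 stand out in the sebocyte-like columns and Pfkfb3 and Ddit4 in the blood endothelial-like columns, while Ndrg1 is high in both blood endothelial-like and fibroblast-like columns of NP and dpp42, and Aldoa, Gapdh and Ldha are present in all classes.

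The clearest pattern among epidermal cells lay at the lactate and pyruvate end of the pathway. In sebocyte-like cells, the lipid-filled cells of the gland beside the hair follicle, Ldhb had 756, 681 and 671 CPM in NP, dpc16 and dpp42, whereas basal keratinocyte-like cells of the epidermis had 16.3, 14.2 and 13.9 CPM. The ranges are far apart, and the ratio was 46.3 in NP, 47.8 in dpc16 and 48.3 in dpp42, with lower bounds of 24.2, 26.0 and 18.8. Slc16a1, which encodes the transporter MCT1 that carries lactate and pyruvate across the membrane, had 180, 101 and 193 CPM in sebocyte-like cells, against 3.63, 2.85 and 3.47 CPM in basal-like cells, where it rested on 1 or 2 UMIs. Its lowest ratio, in dpc16, was 35.5 with an interval of 9.76 to 294. Pdha1 had 310, 342 and 298 CPM in sebocyte-like cells and 59.8, 88.2 and 93.7 CPM in basal-like cells, 3.18 to 5.19 times as much.

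Ldha did not follow Ldhb: it had 224, 272 and 234 CPM in sebocyte-like and 250, 270 and 215 CPM in basal-like cells, with all 3 ratio intervals holding 1. Of the UMIs of Ldha and Ldhb together, Ldhb therefore took 77.1% in NP, 71.5% in dpc16 and 74.2% in dpp42 sebocyte-like cells, with lower bounds of 74.1%, 69.9% and 71.3%, against 6.12%, 5.0% and 6.06% in basal-like cells. The same share was 9.52%, 13.7% and 2.70% in fibroblast-like and 14.3%, 5.19% and 6.41% in blood endothelial-like cells, the NP and dpp42 values resting on 2 to 5 Ldhb UMIs. Slc16a3, the exporter MCT4, had no UMI in sebocyte-like cells of any library, so of 151, 366 and 209 UMIs of both transporters in NP, dpc16 and dpp42 the upper bound of its share was 2.41%, 1.00% and 1.75%. Ldhb was high in all 4 sebocyte-like clusters, between 364 and 837 CPM in every cluster and library. Ldha differed among them, with 346, 432 and 351 CPM in NP, dpc16 and dpp42 in cluster 24. It had 142, 185 and 148 CPM in cluster 16. Cluster 16, with 174 of the 485 dpc16 cells, resembled sebocytes least, with 1 sebocyte marker among its leading genes. Ldhb was itself among those leading genes, and Pdha1 there had 131, 162 and 123 CPM in NP, dpc16 and dpp42.

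Of the genes of glucose uptake and glycolysis, 5 were lower in sebocyte-like cells in each library. Slc2a1, which encodes the glucose transporter GLUT1, had 19.1, 13.5 and 19.4 CPM in sebocyte-like cells, against 85.2, 79.7 and 90.2 CPM in basal-like cells, a ratio of 0.17 to 0.224. Pfkp, the platelet-type phosphofructokinase gene, had 22.7, 32.3 and 19.4 CPM against 151, 115 and 156 CPM. Pkm, which encodes the pyruvate kinase of most tissues, had 71.6, 101 and 97.9 CPM against 181, 255 and 347 CPM. Gapdh (186, 286 and 198 against 316, 454 and 344 CPM), the enolase gene Eno1 (46.6, 85.3 and 73.9 against 127, 164 and 160 CPM) and Bnip3 were also lower in sebocyte-like cells in each library. Of 23 of the genes measured in all 3 libraries, 3 were thus higher in each, where 14.4% of all 5458 genes were, and 6 lower, where 11% were. Hk1, Hk2, Gpi1, Pfkl, Pgk1 and Pgam1 were in neither group, and Aldoa was above the basal-like level in each library without a call in each, at 563, 731 and 694 CPM against 470, 407 and 590 CPM. Against spinous-like cells, Ldhb, Slc16a1 and Pdha1 were again higher in each library, with Aldoa, and Slc2a1, Pfkp, Egln1, Egln3 and Ndrg1 lower, of 25 measured (backgrounds 16.3% higher and 17.7% lower).

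**Figure D2:**
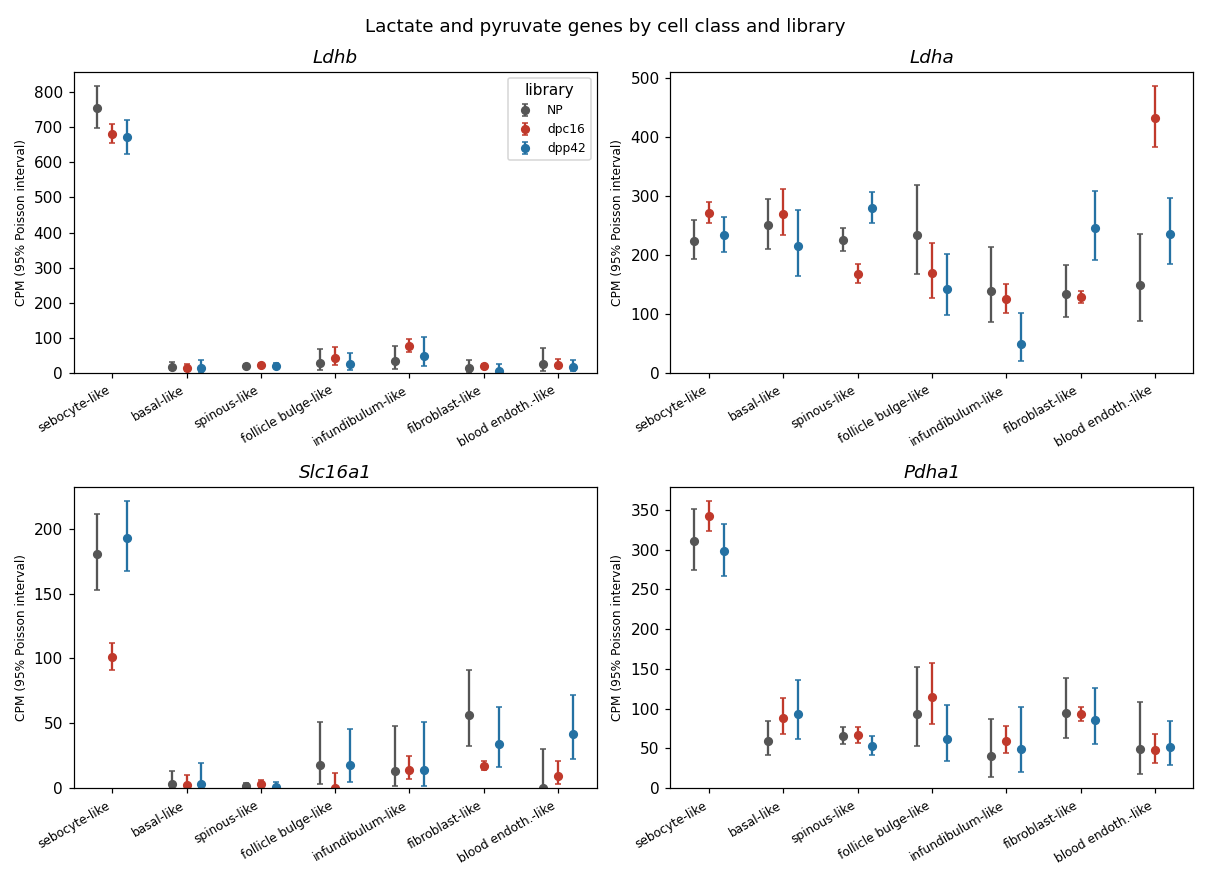
CPM of Ldhb, Ldha, Slc16a1 and Pdha1 (1 panel each) by cell class, with NP, dpc16 and dpp42 side by side in each class and exact Poisson 95% bars. Ldhb, Slc16a1 and Pdha1 are highest in the sebocyte-like class in all 3 libraries, at 671 to 756, 101 to 193 and 298 to 342 CPM, whereas Ldha varies little between sebocyte-like and basal-like cells.

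Genes outside the 30 that carry pyruvate onward were read in the same way. From a list of 12 that take pyruvate into mitochondria, 9 were measured in all 3 libraries, and 5 were higher in sebocyte-like than in basal-like cells in each, with 0 lower (14.4% and 11% over all genes). Mpc1 and Mpc2, the subunits of the mitochondrial pyruvate carrier, had 784, 741 and 688 CPM and 1641, 1136 and 1550 CPM in sebocyte-like cells of NP, dpc16 and dpp42, against 129, 194 and 115 CPM and 236, 250 and 205 CPM in basal-like cells. Pcx, the pyruvate carboxylase gene, had 130, 105 and 112 CPM against 3.63, 4.27 and 10.4 CPM. Pdk4, whose product switches pyruvate dehydrogenase off, had 283, 292 and 235 CPM against 3.63, 5.69 and 3.47 CPM, and stood among the leading genes of 1 sebocyte-like cluster. Of 15 measured among 26 further hypoxia target genes, 2 were higher and 3 lower, among them P4ha1 and Gbe1. The higher ones were Bhlhe41, with 116, 28.2 and 155 CPM in sebocyte-like cells against 0, 1.42 and 3.47 CPM in basal-like cells, and Angptl4, which encodes an inhibitor of lipoprotein lipase, with 215, 518 and 174 CPM against 12.7, 56.9 and 20.8 CPM. Epas1, which encodes the related factor HIF-2α, had 44.2, 12.2 and 45.2 CPM in sebocyte-like cells, against 0, 2.85 and 3.47 CPM in basal-like cells.

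Within the layered epidermis, several genes of glycolysis were lower in the spinous-like than in the basal-like class, the latter being the single cluster described above. Aldoa had 305, 269 and 347 CPM in spinous-like and 470, 407 and 590 CPM in basal-like cells of NP, dpc16 and dpp42, a ratio of 0.649 (0.563 to 0.750), 0.662 (0.575 to 0.763) and 0.588 (0.494 to 0.702). Slc2a1 had 49.0, 50.6 and 35.3 CPM against 85.2, 79.7 and 90.2 CPM, and Pfkp had 65.0, 55.1 and 95.2 CPM against 151, 115 and 156 CPM. The spinous-like values lay below all basal-like values for these 3 genes. Pgk1, the phosphoglycerate kinase gene, and Bnip3 were also lower in each library. Ndrg1, a stress-responsive gene of differentiating epithelia, was the exception, with 112, 158 and 105 CPM in spinous-like and 68.9, 52.6 and 38.2 CPM in basal-like cells. Among 26 measured genes these made 1 higher (background 7.57%) and 5 lower (5.18%). With every cell thinned to 1000 UMIs, which leaves 12 genes measured, 0 of the 6 calls held in all 3 libraries, and without clusters 2 did. Thinned, the Aldoa ratio came to 0.708, 0.706 and 0.683 in NP, dpc16 and dpp42, and its interval reached 1 in the dpc16 and dpp42 libraries. Of the further hypoxia targets, Gbe1, Car12 and P4ha1 were lower, 3 of 11 measured.

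Follicle compartments also lay at or below the basal-like level. In infundibulum-like cells, 6 of 16 measured genes were lower in each library (background 6.08%) and 0 higher (6.65%). Ldha there had 140, 125 and 49.7 CPM, against 250, 270 and 215 CPM in basal-like cells, and Hif1a had 39.9, 74.0 and 49.7 CPM, against 163, 142 and 156 CPM. Gpi1, Pgam1, Gapdh and Bnip3 completed the 6. In bulge-like cells, which house follicle stem cells, Pfkp and Eno1 were lower, 2 of 16 (4.25%), and 0 higher (6.94%). Cycling-like cells had lower Aldoa, at 160, 143 and 170 CPM against 470, 407 and 590 CPM in basal-like cells (3.29% of genes were lower), and higher Ldhb, at 191, 260 and 159 CPM against 16.3, 14.2 and 13.9 CPM (10.3% were higher). The cycling-like class is mixed: a cluster whose second markers were those of sebocytes gave 23 of 81, 62 of 129 and 15 of 57 cells in NP, dpc16 and dpp42, and one whose second markers were basal gave the others. Ldhb had 496 and 476 CPM in NP and dpc16 cells of the sebocyte-related cluster, but 21.8, 22.6 and 31.5 CPM in the basal-related one. Granular-like cells numbered 9, 12 and 13, too few to describe beyond Gapdh, which was lower than in spinous-like cells in each library (4.09%, with 6.34% higher).

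Blood endothelium had its own set. Pfkfb3, whose product makes the sugar phosphate that accelerates phosphofructokinase and which is known as a driver of glycolysis in sprouting vessels, had 331, 69.5 and 294 CPM in blood endothelial-like cells of NP, dpc16 and dpp42, against 7.37, 3.74 and 4.91 CPM in keratinocyte-like cells. The classes did not overlap, and the ratios were 44.9 (28.0 to 72.2), 18.6 (11.8 to 29.4) and 59.9 (36.9 to 101). Hk1, the housekeeping hexokinase gene, had 66.2, 55.3 and 51.7 CPM against 19.1, 16.5 and 19.9 CPM. Its inducible counterpart Hk2 took 0 of 8, 14.6% and 27.3% of the UMIs of both in blood endothelial-like cells, against 74.8%, 70.7% and 67.9% in keratinocyte-like cells. The hexokinase pair thus leaned opposite ways in the 2 classes in each library. Blood endothelial-like Hk2 rested on only 0, 6 and 6 UMIs in NP, dpc16 and dpp42.

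Hif1a and 3 of the oxygen-response genes were also higher in blood endothelial-like than in keratinocyte-like cells in each library. Hif1a had 314, 199 and 265 CPM in blood endothelial-like cells and 121, 93.9 and 99.8 CPM in keratinocyte-like cells. Ndrg1 had 546, 490 and 468 CPM against 103, 131 and 89.5 CPM, a ratio of 3.73 to 5.30. Ddit4, which encodes an inhibitor of mTORC1 signalling, had 289, 217 and 268 CPM against 47.4, 62.2 and 61.5 CPM. Ankrd37, an ankyrin repeat gene known as a HIF-1 target, had 82.7, 49.0 and 35.5 CPM against 9.56, 6.43 and 11.5 CPM. Others did not follow: Egln1 had 8.27, 17.4 and 32.3 CPM against 45.6, 17.7 and 50.7 CPM, and Egln3 had 0, 12.6 and 35.5 CPM against 19.1, 19.2 and 34.6 CPM. In activated keratinocyte-like cells Hif1a had 605, 228 and 548 CPM, in 19, 137 and 8 cells of NP, dpc16 and dpp42. In dpc16, with the most such cells, its interval of 197 to 263 CPM overlapped the blood endothelial-like 166 to 237 CPM. The dpp42 intervals also overlapped, at 313 to 890 against 211 to 329 CPM. Among 29 measured genes, 6 were higher in each library, where 13.2% of all genes were, and 1 was lower, Ldhb, where 9.26% were. The keratinocyte-like class includes the sebocyte-like cells, in which Ldhb was high. Blood endothelial-like Ldhb had 24.8, 23.7 and 16.1 CPM in NP, dpc16 and dpp42, on 3, 15 and 5 UMIs. These values were not below the basal-like ones given above. Pfkfb3, Hif1a and Ddit4 were also higher than in fibroblast-like cells in each library, 3 of 18 measured (14.2%), with 0 lower (13.5%).

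**Figure D3:**
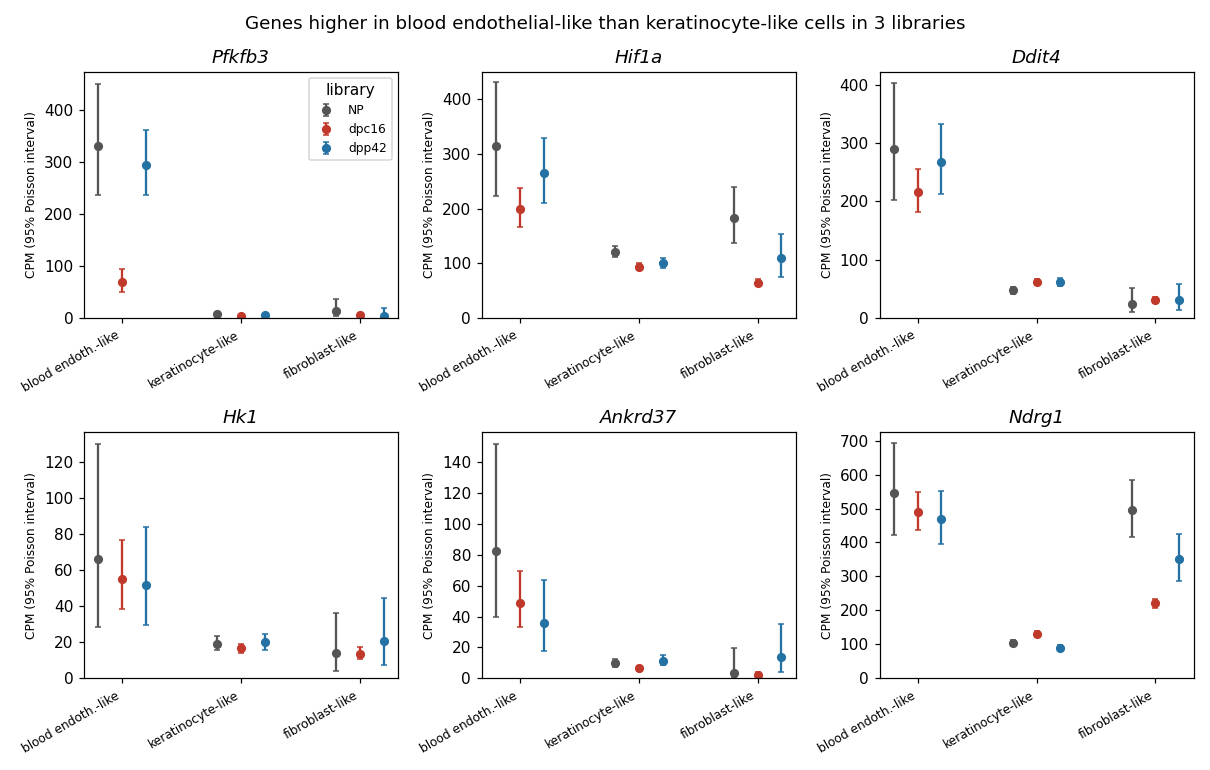
CPM of Pfkfb3, Hif1a, Ddit4, Hk1, Ankrd37 and Ndrg1 (1 panel each) in blood endothelial-like, keratinocyte-like and fibroblast-like cells, with NP, dpc16 and dpp42 side by side and exact Poisson 95% bars. For all 6 genes the blood endothelial-like values exceed the keratinocyte-like values, and Pfkfb3 is lower in dpc16 (69.5 CPM) than in NP (331 CPM) or dpp42 (294 CPM).

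Epas1 was higher as well, at 769, 620 and 723 CPM in blood endothelial-like cells of NP, dpc16 and dpp42 and 10.6, 7.10 and 15.9 CPM in keratinocyte-like cells. Lymphatic endothelial-like cells differed from blood endothelial-like cells at 2 of 9 measured genes, both lower (13.2%, with 6.95% higher): Pfkfb3 had 30.0, 21.7 and 39.6 CPM in lymphatic and 331, 69.5 and 294 CPM in blood endothelial-like cells, and Hif1a had 44.9, 67.8 and 112 CPM against 314, 199 and 265 CPM. The NP values rest on 19 lymphatic and 41 blood endothelial-like cells.

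Keratinocyte-like and fibroblast-like cells differed in each library at 6 of 27 measured genes. Higher in keratinocyte-like cells (4 genes, background 13.6%) were Aldoa, the triose phosphate isomerase gene Tpi1, Ldhb and Pdk1. Pdk1, which encodes a kinase that inhibits pyruvate dehydrogenase, had 34.6, 28.2 and 48.2 CPM against 7.03, 5.84 and 6.82 CPM. Ldhb had 14.1, 20.5 and 6.82 CPM in fibroblast-like cells of NP, dpc16 and dpp42, the last on 2 UMIs. The NP and dpp42 values were below and the dpc16 value above the basal-like ones given earlier. The keratinocyte-like class includes the sebocyte-like cells, in which Ldhb was high. Lower (2 genes, 12.3%) were Ndrg1, with 103, 131 and 89.5 CPM against 496, 221 and 351 CPM, and Adm, which encodes the vasodilator adrenomedullin, with 20.5, 18.3 and 10.1 CPM against 77.3, 49.9 and 119 CPM.

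Between stages, the pair that stood apart in keratinocyte-like cells was Bnip3 and Egln1. Bnip3, which encodes a mitochondrial receptor for mitophagy and is a textbook HIF-1 target, had 19.3 CPM in dpc16 and 60.5 CPM in dpp42, against 58.7 CPM in NP. The dpc16 over NP ratio was 0.328 (0.273 to 0.394), while the dpp42 over NP ratio of 1.03 (0.869 to 1.22) held 1. Egln1, which encodes the main oxygen-sensing prolyl hydroxylase PHD2, had 17.7 CPM in dpc16 and 50.7 CPM in dpp42, against 45.6 CPM in NP. Its ratios were 0.387 (0.317 to 0.472) and 1.11 (0.920 to 1.35). Both genes were thus low in dpc16 alone among the 3 libraries, and both calls held in all 12 alternative processings that gave a value.

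The low dpc16 level appeared in the separate layers. In basal-like cells Bnip3 had 32.7 CPM in dpc16 and 128 CPM in dpp42, against 160 CPM in NP, and Egln1 had 15.7 and 55.5 CPM, against 65.3 CPM in NP. In spinous-like cells Bnip3 had 14.5 CPM in dpc16 and 78.2 CPM in dpp42, against 59.0 CPM in NP, and Egln1 had 26.1 and 74.4 CPM, against 52.2 CPM in NP. Within both spinous-like clusters the order was the same, Bnip3 having 9.11 CPM in dpc16 against 74.6 CPM in NP in one and 18.2 against 49.4 CPM in the other. Cycling-like cells had 20.5 CPM of Bnip3 and 9.73 CPM of Egln1 in dpc16, against 61.7 and 56.1 CPM in NP. In the basal-related cycling cluster alone, Bnip3 had 29.4 CPM in dpc16 against 95.8 CPM in NP and Egln1 had 18.1 against 69.7 CPM; in the sebocyte-related one, Bnip3 had 12.4 CPM in dpc16 and no UMI in NP. Sebocyte-like cells did not pass the criterion, with Bnip3 at 16.8 CPM in dpc16 against 25.1 CPM in NP (ratio 0.672, 0.404 to 1.16), nor did bulge-like cells, at 43.2 against 46.8 CPM (0.924, 0.362 to 2.54).

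Close relatives of the pair did not share it. Bnip3l, the paralogue of Bnip3, had 153 CPM in dpc16 and 145 CPM in dpp42 keratinocyte-like cells, against 120 CPM in NP, and Bnip3 took 11.2% of the UMIs of both in dpc16 and 29.4% in dpp42, against 32.9% in NP. In basal-like cells the Bnip3 share was 18.4% in dpc16 and 46.2% in dpp42, against 61.5% in NP. Egln3, which encodes the inducible hydroxylase PHD3, had 19.2 CPM in dpc16, 34.6 CPM in dpp42 and 19.1 CPM in NP. It took 52.1% of the UMIs of Egln1 and Egln3 in dpc16 and 40.5% in dpp42, against 29.5% in NP. Shares within a pair do not depend on the total UMIs of a class.

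**Figure D4:**
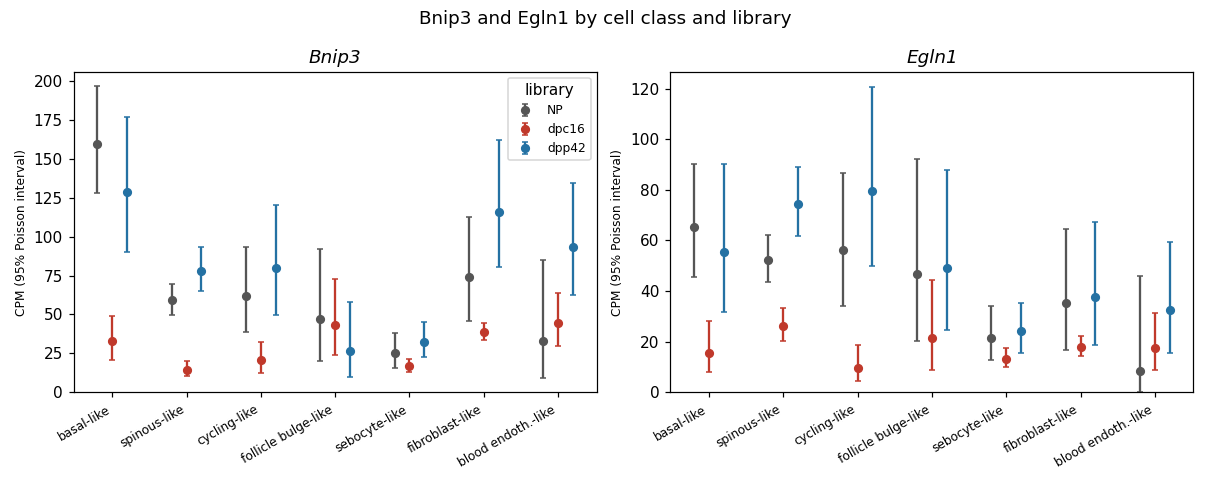
CPM of Bnip3 and Egln1 (1 panel each) in 7 cell classes, with NP, dpc16 and dpp42 side by side and exact Poisson 95% bars. In basal-like, spinous-like and cycling-like cells the dpc16 value is below the NP and dpp42 values for both genes; in basal-like cells Bnip3 stands at 32.7 CPM in dpc16, 128 CPM in dpp42 and 160 CPM in NP.

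Among all 27 of the genes measured in keratinocyte-like cells, 3 were lower in dpc16 than in NP, where 23.3% of all genes were lower, and 3 were higher, where 8.42% were. The median log2 ratio of the measured genes was 0.00, beside -0.18 over all genes. Beside Bnip3 and Egln1, the liver-type phosphofructokinase gene Pfkl was lower, with 13.8 CPM in dpc16 against 24.3 CPM in NP. Pgk1 was higher, with 22.9 against 11.9 CPM, as were Ldhb, with 276 against 155 CPM (ratio 1.79, 1.65 to 1.94), and Pdha1, with 171 against 107 CPM (1.60, 1.45 to 1.77). The Ldhb difference went with the number of sebocyte-like cells, 485 of 1514 keratinocyte-like cells in dpc16 and 146 of 998 in NP; within sebocyte-like cells Ldhb had 681 CPM in dpc16 and 756 CPM in NP, and the log2 ratio was -0.09 when each shared cluster had the same weight. Pdha1 had 342 CPM in dpc16 and 310 CPM in NP within sebocyte-like cells, and was not called in either sebocyte-like or basal-like cells. Hif1a, at 93.9 against 121 CPM, did not reach 1.5-fold.

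Other calls between dpc16 and NP differed from layer to layer. In basal-like cells, Gpi1, the phosphoglucose isomerase gene, was higher, with 223 against 132 CPM, and Pfkl and Adm lower with Bnip3 and Egln1 (1 and 4 of 24 measured, backgrounds 7.17% and 14.7%). In spinous-like cells, 0 of 26 genes were higher (5.77%) and 5 lower (25.8%), with Pfkl at 14.1 against 31.3 CPM, Pdk1 at 19.5 against 36.1 CPM and Tpi1 at 89.1 against 139 CPM beside the pair. Cycling-like cells had higher Gpi1 and Ndrg1 and lower Hk2 and Hif1a beside the pair (2 and 4 of 26, 5.88% and 13.8%). In the basal-related cluster of that class Hif1a had 165 CPM in dpc16 and 161 CPM in NP, and in the sebocyte-related one 58.0 and 173 CPM. Bulge-like cells had 1 higher, Gapdh (6.71%), and 0 lower (7.53%) of 15. In spinous-like cells the median log2 ratio was -0.13 for the measured genes and -0.31 for all genes, so the 5 lower calls stand in a class where lower calls were frequent.

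Sebocyte-like cells of dpc16 had 5 higher and 3 lower genes than NP of 23 measured (7.49% and 13.5%). Tpi1 had 124 against 82.4 CPM (ratio 1.51, 1.17 to 1.97), Eno1 had 85.3 against 46.6 CPM and Pgk1 had 26.0 against 4.77 CPM, the last on 4 NP UMIs. Ddit4 had 78.4 against 37.0 CPM, and Gapdh also was higher. Slc16a1 had 101 CPM in dpc16 against 180 CPM in NP (0.561, 0.463 to 0.682), Hif1a had 80.4 against 152 CPM (0.530, 0.429 to 0.658), and Hk2 had 29.8 against 50.1 CPM. The direction of Hif1a turned in cells thinned to 1000 UMIs, where its log2 ratio was 0.055. Hk2 was lower in dpc16 in a single sebocyte-like cluster, at 17.5 against 57.2 CPM in NP. In the others it had 189 against 125, 8.76 against 0 and 8.69 against 5.69 CPM. The cluster with 189 CPM gave 53 of 485 dpc16 and 30 of 146 NP cells.

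At day 42 after birth some calls against NP were those of dpc16 and others were not; both comparisons share the NP library. In dpp42 keratinocyte-like cells, 2 of 28 measured genes were higher than in NP (background 4.47%) and 2 lower (3.18%). Egln3 had 34.6 CPM in dpp42 against 19.1 CPM in NP (ratio 1.81, 1.39 to 2.37) and Pgk1 had 21.3 against 11.9 CPM. Slc2a1 had 31.1 against 52.4 CPM (0.594, 0.478 to 0.734) and Adm 10.1 against 20.5 CPM. The lower Slc2a1 level did not appear in every layer. In basal-like cells, by the values given above, it was not lower in dpp42, and sebocyte-like cells had 19.4 against 19.1 CPM. Spinous-like cells were lower without a call, and cycling-like cells had 39.8 against 84.1 CPM. Egln3 was higher in both layers, with 45.1 against 16.3 CPM in basal-like and 51.7 against 23.3 CPM in spinous-like cells. In basal-like cells Pgk1 and Pkm, at 347 against 181 CPM, were higher too and Adm lower, on 1 dpp42 UMI (3 and 1 of 23, 3.32% and 3.30%). In spinous-like cells Pgk1 and Ankrd37 joined Egln3 (3 and 0 of 27, 2.30% and 4.94%). Sebocyte-like cells had higher Pgk1 and Eno1 and lower Hif1a, at 84.0 against 152 CPM (2 and 1 of 24, 2.92% and 1.76%).

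In fibroblast-like cells, the calls between dpc16 and NP lay on the low side. Of 26 measured genes, 7 were lower in dpc16 (background 16%) and 0 higher (6.35%), and the 30 genes took 0.188% (0.184 to 0.191) of UMIs in dpc16 and 0.268% (0.250 to 0.288) in dpp42, against 0.253% (0.235 to 0.272) in NP. Hif1a had 64.6 CPM in dpc16 against 183 CPM in NP, a ratio of 0.354 (0.263 to 0.484). Ndrg1 had 221 against 496 CPM (0.445, 0.373 to 0.535). Both calls stood in all 12 alternatives that gave a value. Slc16a1 had 17.1 against 56.2 CPM, Hk2 had 78.3 against 134 CPM and Pgam1, the phosphoglycerate mutase gene, had 68.9 against 127 CPM. Bnip3, at 38.9 against 73.8 CPM, and Ero1l, which encodes an oxidase of the endoplasmic reticulum, at 17.5 against 38.7 CPM, completed the 7. The Hk2 and Ero1l calls were each lost in 4 of 12 alternatives, the Bnip3 and Pgam1 calls in 3 and the Slc16a1 call in 1. Pgk1 had 51 UMIs in dpc16 and 0 in NP and was not called. The median log2 ratio was -0.44 for the measured genes and -0.30 for all genes, and after centring on the median of all genes 3 genes were lower and 1 higher.

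The fibroblast-like class was made of different clusters at the 2 stages: clusters led by type I collagen and Sparc and by Ctla2a and Gpx3 gave 311 and 189 of the 1125 dpc16 cells but 2 and 1 of the 102 NP cells. In the 3 clusters with 20 or more cells in each library, Hif1a was lower in dpc16 each time, at 126 against 243, 53.0 against 129 and 53.2 against 103 CPM. Ndrg1 was not: it had 177 against 718 CPM in the cluster with Igfbp2 among its leading genes, but 555 against 522 CPM in the cluster with Ccl7 and Ccl2, and 226 against 222 CPM in that with Mfap4 and Eln. Hk2 had 168 CPM in dpc16 against 129 CPM in NP in the Ccl7 and Ccl2 cluster and was lower in dpc16 in the others, and Bnip3 had 37.0 against 17.1 CPM in the Mfap4 and Eln cluster, on 1 NP UMI.

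In dpp42 fibroblast-like cells, Ldha had 246 against 134 CPM in NP (ratio 1.84, 1.22 to 2.80) and Pkm had 232 against 127 CPM (1.83, 1.21 to 2.83), the 2 genes called higher of 17 measured (8.35%). Hk2, at 51.1 against 134 CPM, and Hif1a, at 109 against 183 CPM (0.597, 0.372 to 0.945), were lower (6.92%). The Hif1a call was lost in 5 of 12 alternatives, with a log2 ratio of -0.04 in cells thinned to 1000 UMIs, and the Hk2 call in 3. The cluster mix differed here too, the Ccl7 and Ccl2 cluster giving 21 of 112 dpp42 and 48 of 102 NP cells. In that cluster Hk2 had 259 CPM in dpp42 against 129 CPM in NP, and in the Mfap4 and Eln cluster Hif1a had 117 against 103 CPM, on 9 and 6 UMIs. Set against dpc16 in place of NP, 11 of 26 measured genes were higher in dpp42 (20.1%) and 0 lower (4.85%), among them Hif1a, Ldha, Pkm, Bnip3, Egln1, Ndrg1 and Adm, with medians of 0.62 for the measured genes and 0.48 for all genes on the log2 scale. The dpp42 values rest on 112 cells and 293261 UMIs. The cluster mix again differed, the cluster with Igfbp2 giving 61 of 112 dpp42 and 160 of 1125 dpc16 cells. Bnip3 there had 198 CPM in dpp42 against 39.1 CPM in dpc16. It had 0 against 34.4 CPM in the Ccl7 and Ccl2 cluster and 26.0 against 37.0 CPM in that with Mfap4 and Eln. In the last, Ndrg1 and Adm had 182 against 226 and 26.0 against 28.0 CPM, but both were higher in dpp42 in the others. Hif1a and Ldha were higher in dpp42 in each of these clusters.

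In blood endothelial-like cells, Gapdh, Pkm, Ldha and Slc2a1 were higher in dpc16 than in NP. Gapdh had 697 CPM in dpc16 against 215 CPM in NP (ratio 3.24, 2.18 to 5.02), Ldha had 433 against 149 CPM (2.91, 1.81 to 4.98) and Pkm had 302 against 141 CPM (2.15, 1.31 to 3.76). Slc2a1 had 69.5 against 8.27 CPM, but on 1 NP UMI, so that its ratio of 8.41 has an interval of 1.43 to 340. Other genes of the later steps were not called, with Pgam1 at 69.5 against 74.4 CPM and Eno1 at 91.7 against 82.7 CPM. The regulator gene Pfkfb3 was lower: it had 69.5 CPM in dpc16 against 331 CPM in NP, a ratio of 0.210 (0.134 to 0.331), and Hif1a had 199 against 314 CPM (0.634, 0.438 to 0.937). That made 4 higher (5.72%) and 2 lower (10.2%) of 22 measured genes. Gapdh alone was 17.7% of the UMIs of the 30 genes in dpc16 and 6.42% in NP, and without it their sum was 1.04 times as large in dpc16 as in NP, against 1.18 times with it.

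The class holds a larger cluster and a small one that came mostly from dpc16 (21 of 27 cells). In the larger cluster alone, Pfkfb3 had 74.0 CPM in dpc16 against 322 CPM in NP. In dpp42, Pfkfb3 had 294 CPM, Ldha 236 CPM and Gapdh 287 CPM, and 0 of 18 measured genes were called higher (2.62%) or lower (3.44%) than in NP; the Ldha ratio of 1.58 had an interval of 0.936 to 2.82, so that a difference was not detectable at this depth. Haemoglobin and other erythroid markers summed to 6692 CPM in dpp42 and 623 CPM in dpc16 blood endothelial-like cells, against 8.27 CPM in NP, where 4 of 5 had no UMI, and their part was not tested.

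Hypoxia targets outside the 30 were called in both directions. Of 26 listed, 19 were measured in keratinocyte-like cells between dpc16 and NP, with 4 higher and 5 lower (8.42% and 23.3% over all genes), and 19 in fibroblast-like cells, with 4 higher and 6 lower (6.35% and 16%). Angptl4 was higher in dpc16 in all 3 main classes, with 261 CPM in dpc16 keratinocyte-like cells against 49.4 CPM in NP. The values were 175 against 31.6 CPM in fibroblast-like and 371 against 108 CPM in blood endothelial-like cells. Hilpda, whose product sits on lipid droplets, had 109 CPM in dpc16 and 33.1 CPM in NP blood endothelial-like cells, and in dpc16 keratinocyte-like cells 2.67 times the 18.7 CPM of NP. Hmox1, the haem oxygenase gene, had 38.1 CPM in dpc16 and 16.9 CPM in NP keratinocyte-like cells, and 1012 and 430 CPM in blood endothelial-like cells. Stc2 had 68.1 against 3.52 CPM in fibroblast-like cells, on 1 NP UMI (ratio 19.4, 3.45 to 767).

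Vegfa, the main vascular growth factor gene and a HIF target, was lower in dpc16, with 23.4 CPM in dpc16 fibroblast-like cells against 91.4 CPM in NP; the keratinocyte-like values were 10.7 and 18.7 CPM. Of the oxygen-sensing genes in keratinocyte-like cells, read against the same backgrounds, 2 of 8 measured were higher, among them Cited2, at 124 against 67.3 CPM, and 4 lower, among them Hif1an, which encodes the asparaginyl hydroxylase of HIF-1α, at 8.73 against 17.1 CPM. In fibroblast-like cells Arnt had 35.4 against 84.4 CPM and P4ha2 50.5 against 116 CPM. Of the pyruvate genes in keratinocyte-like cells, 5 of 9 were higher (8.42% over all genes) and 0 lower, with Pdk4 at 147 against 56.7 CPM. Within basal-like cells Mpc1 had 194 CPM in dpc16 against 129 CPM in NP, and within sebocyte-like cells 741 against 784 CPM. Pdk4 had 292 CPM in dpc16 against 283 CPM in NP within sebocyte-like cells, and 5.69 against 3.63 CPM within basal-like cells. Sebocyte-like cells were 485 of 1514 keratinocyte-like cells in dpc16 and 146 of 998 in NP.

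Across 29 sums of 1 class in 1 library, all from the same 3 libraries and classes of unequal depth, the summed level of the 30 genes followed Ldha most closely (Pearson r = 0.75), then Hif1a (0.67) and Gapdh (0.65), and least Hk2 (-0.37) among the genes that reached the level required. Outside the lists, the genes with the most similar pattern were Picalm (0.75), 8430408G22Rik (0.69), Pdlim1 (0.68), Taf1d (0.68), Ybx1 (0.64) and Pde4b (0.63), followed by Nus1, Sh3bgrl, Parm1 and Cd36 (0.59 to 0.62). These are descriptions over sums that share libraries, and each of the 30 genes is itself part of the summed level.

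Aldoa, Gapdh, Pgk1 and Eno1 have near-identical copies in the mouse genome that could take some of their reads. The copies listed in the tables held few UMIs, at most 37 in a library, for Eno1b in dpc16, so the levels of these 4 genes carry that uncertainty. Of the 30 genes, Slc16a3 and Pfkfb3 stayed below 10 CPM in keratinocyte-like cells of every library.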

How the data were processed

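Single-cell libraries (3′ ends, droplet barcodes with molecular identifiers) were made from dissociated abdominal dermis, 1 per stage. The authors deposited whole-number UMI counts per gene and barcode; the submitters' processing notes name Cell Ranger 2.2.0 and builds GRCm38 and mm10, and the gene annotation is not given in the sources used here. Of 28693 gene identifiers, 28416 matched GENCODE M21.

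Barcodes with at least 200 genes and at most 10% mitochondrial UMIs were kept; 3.08% of NP, 11.4% of dpc16 and 9.62% of dpp42 barcodes were left out. Kept cells numbered 1289, 3652 and 1081, the submitters' own numbers except for 2 more in dpc16. Counts scaled to 10000 per cell were clustered with scanpy 1.11.5 (2000 variable genes with library as batch key, 30 components, 15 neighbours, Leiden resolution 1). The 30 genes and 5 related lists were kept out of the variable genes. Clusters were named from marker lists only as resembling a type. Clusters 3, 10 and 28 carried no class. Scrublet marked 1 or 2 cells per library, too few to have worked, so no doublets were removed; free RNA was not removed either.

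UMIs were summed per class and library. Ratios have exact conditional binomial and shares exact Clopper-Pearson 95% intervals, which cover counting error only. Fitted log2 ratios add 0.5 UMI to each sum. All 30 genes were described; from other lists at most the 4 largest ratios past the criterion were named, plus Vegfa. Genes and lists were chosen with earlier results of these data known. Simulated counts were used to check the scripts.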

Additional observations from a re-analysis of the deposited data

Results flagged for a closer look

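Tpi1, the triose phosphate isomerase gene, was called in opposite directions between dpc16 and NP in 2 classes. The log2 ratio was 0.58 in sebocyte-like cells, with 124 CPM in dpc16 against 82.4 CPM in NP, and -0.64 in spinous-like cells, with 89.1 CPM in dpc16 against 139 CPM in NP. The difference between the classes was not tested, since each stage has 1 library.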

How the results depend on the processing

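No paired analysis was possible because each stage is 1 library, and leaving out a library leaves no comparison. Of 402 values of single genes under the alternatives, 336 kept direction and side of the criterion, 64 lost the call and 2 reversed: Hif1a in sebocyte-like cells, dpc16 over NP, came to 0.055 (log2) with cells thinned to 1000 UMIs, and Ldhb in keratinocyte-like cells to -0.086 with shared clusters weighted equally. The calls of Bnip3 and Egln1 in keratinocyte-like cells, Gapdh, Ldha and Pfkfb3 in blood endothelial-like cells, and Hif1a and Ndrg1 in fibroblast-like cells held in all 12 alternatives that gave a value.

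Counts of called genes depended more on the setting. For dpc16 over NP in fibroblast-like cells, the 7 calls became 2 with thinned cells, 14 with the mean of per-cell CPM, 4 (1 higher, 3 lower) after centring, 4 at 2-fold and 11 with shared clusters weighted equally; the per-cell and equal-weight counts carry no interval. For dpp42 over NP there, 4 became 2 without clusters, 1 with thinned cells, 9 with per-cell means, 1 at 2-fold and 2 with equal weights. In keratinocyte-like cells 6 became 2 (dpc16) and 4 became 1 (dpp42) at 2-fold, and centring turned the dpc16 split of 3 higher and 3 lower into 5 and 3. In blood endothelial-like cells the 6 dpc16 calls became 3 with thinned cells, and the 0 dpp42 calls became 5 with per-cell means and 1 with members allowed in clustering, centring, no minimum, or totals without mitochondrial, ribosomal and haemoglobin genes.

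Between classes, thinning left 2 of 7 calls for blood endothelial-like over keratinocyte-like cells, 4 of 9 for sebocyte-like over basal-like cells and 0 of 6 for spinous-like over basal-like cells, which kept 2 without clusters; keratinocyte-like over fibroblast-like cells kept 3 of 6 at 5% mitochondrial UMIs. The Ldhb share of sebocyte-like cells in NP, dpc16 and dpp42 was 81.1%, 73.9% and 66.9% at 5% mitochondrial UMIs, and thinned it was 82.0% in NP and 80.9% in dpp42. The dpc16 over NP ratio of the summed genes was 0.687 (5% limit) and 0.684 (no clusters) in fibroblast-like cells, where it was 0.742. In keratinocyte-like cells it was 1.12, and 1.03 at the 5% limit, 1.10 at resolution 2, 1.09 without clusters and 1.19 with reduced totals. In blood endothelial-like cells it was 1.06 thinned and 1.04 without Gapdh, beside 1.18. The causes were not tested beyond the fewer cells or UMIs that thinning and the 5% limit leave by construction. Clustering each library alone gave no basal-like class and no dpp42 blood endothelial-like class, and the 5% limit gave no basal-like class, so those values are missing. Using the larger blood endothelial-like cluster alone, or sebocyte-like cells without cluster 16, both added after seeing the data, changed no comparison by over 1.5 times. The 41 blood endothelial-like cells and 102 fibroblast-like cells of NP limit what could be called.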
